A study of Drosophila melanogaster with 18 samples.

Results

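A set of 6 UDP-glycosyltransferase genes of the left arm of chromosome 2 was followed across 3 genotypes of Drosophila melanogaster and 2 sequencing platforms. They form 2 groups of 3 neighbouring genes, CG17324, CG17323 and CG17322 in one and Ugt36Ba, Ugt36Bb and Ugt36Bc in the other. The 6 genes were chosen by name, with earlier results of these data known, and were 6 of 17972 genes in the Illumina table and 6 of 13969 in the Nanopore table. The choice rested on their Illumina rows, and which genotype comparison led to it was not recorded. Their Illumina values are therefore given as a description, with fold changes and standard errors but no p-value for a member, except at one call that sat on the threshold.

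RNA came from whole adult flies in lots of about 70 animals, with 3 biological replicates per genotype on each platform and 18 libraries in all. Every fly carried the GR23E10-gal4 driver, which the labels also spell GMR23E10-gal4. Control flies carried the driver alone and no UAS transgene, dec2WT flies carried UAS-dec2WT, and dec2P384R flies carried UAS-dec2P384R. Dec2 is a basic helix-loop-helix transcriptional repressor, and its P384R form is known from families with naturally short sleep. The yeast activator Gal4 turns on a UAS transgene only where the driver is active, and GR23E10 is known to mark dorsal fan-shaped body neurons that promote sleep. The measured RNA thus came from the whole body and not from the driver's cells alone. No genotype carried a UAS transgene without Dec2. In comparisons with the control, Dec2 and the inserted transgene or line background therefore cannot be told apart. Flies were kept at 25 °C with 12 h of light and 12 h of dark and were collected at zeitgeber time 3. The labels give no sex or age, and no record of whether both platforms used the same RNA.

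UDP-glycosyltransferases are enzymes of the endoplasmic reticulum membrane that move a sugar from a UDP-sugar onto small lipophilic molecules, which makes these more soluble and easier to excrete. In insects the usual donor is UDP-glucose, and the acceptors include plant toxins, insecticides, pigments and hormones. Members of the family are known from the gut, the fat body, the Malpighian tubules and the antennae, where they belong to the machinery that clears odorants and foreign compounds. The acceptors of the individual enzymes described here are not stated, since the sources used here do not give them.

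Illumina libraries held 18057117 to 28293197 reads on genes, and Nanopore libraries held 1922380 to 4659601 estimated counts. Illumina levels are in FPKM, fragments divided by gene length and scaled between libraries, which allows levels of different genes to be compared. Nanopore levels are in CPM, estimated counts scaled to library size, with no division by length. Of the sex markers, 7 yolk and egg coat genes summed to at most 11.4 FPKM in any Illumina library, with Vm26Aa and Cp38 at 0 in all of them, while 7 male genes summed to at least 1080 FPKM. No gene of either list was called, where at most 2.8% of all genes were called in any comparison. Of the 7 female genes only 3 could be tested on Illumina and 1 on Nanopore.

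All 6 genes were annotated on the plus strand of chromosome 2L, and the deposited coordinates were identical to those of the Ensembl annotation used here, which lists the genes under other symbols. The genome build behind the deposited values is not given in the sources used here. CG17324 (FBgn0027074, now Ugt36F1) spans 18819344 to 18822573 and has 6 exons. CG17323 (FBgn0032713, now Ugt36D1) follows after 974 bases, at 18823548 to 18826716, with 5 exons. CG17322 (FBgn0027070, now Ugt36E1) starts only 53 bases beyond the end of CG17323 and spans 18826770 to 18829059 with 4 exons. The 3 genes are thus arranged head to tail, with CG17322 last in the direction of transcription.

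The other group lies 2017759 bases away on the same arm. Ugt36Ba (FBgn0040262, now Ugt37C2) spans 16794211 to 16796009 in 1 exon. Ugt36Bb (FBgn0040261, now Ugt37E1) begins 585 bases later and spans 16796595 to 16798273. Ugt36Bc (FBgn0040260, now Ugt37D1) begins 751 bases after that and spans 16799025 to 16801584. The annotated proteins of all 6 genes are of similar length, from 517 residues in CG17322 to 543 in Ugt36Bc. The current symbols of the 2 groups differ in their number, with Ugt36 in the first and Ugt37 in the other.

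**Figure D1:**
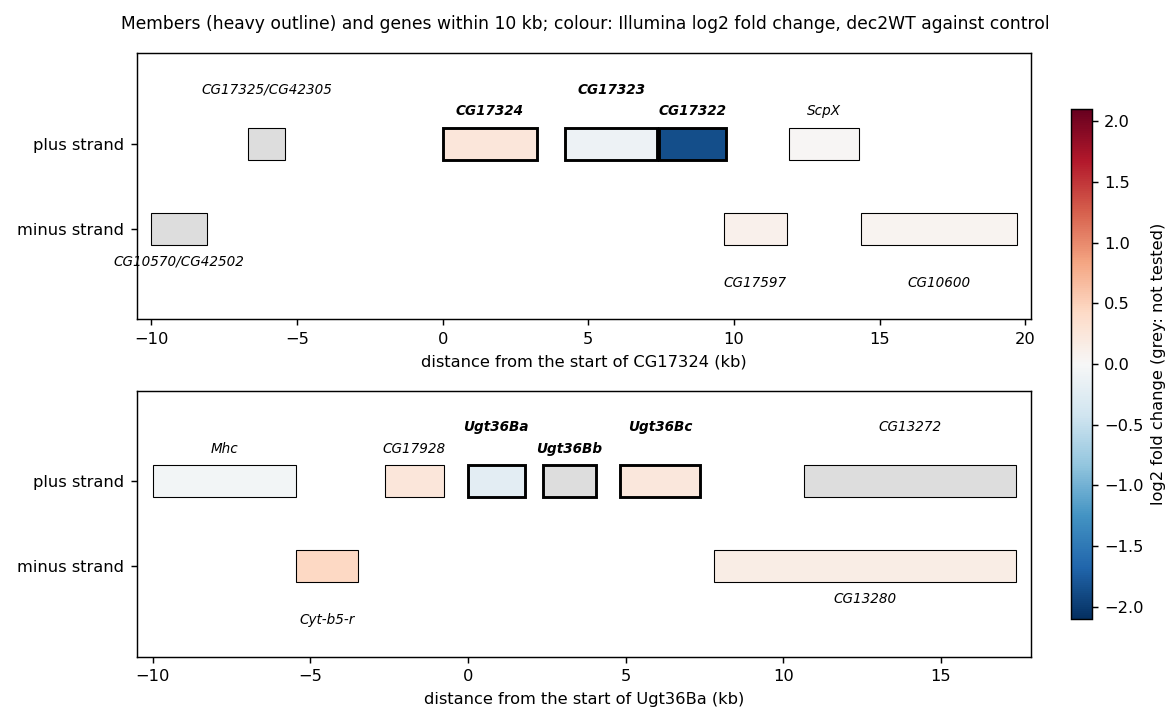
Map of the 2 gene groups, with the distance from the start of the first member in kilobases on the horizontal axis genes drawn as boxes by strand and members in heavy outline. Colour gives the Illumina log2 difference between dec2WT and control, grey marks genes not tested, and genes that run past the window of 10 kb are cut at its edge. CG17322 (-1.86) is the one strongly coloured gene, 53 bases from the pale CG17323 (-0.10).

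CG17322 had the largest difference among the 6 genes. In control flies its Illumina level was 14.4, 15.6 and 15.6 FPKM in replicates 1 to 3. In dec2WT flies it was 3.56, 3.83 and 4.11 FPKM, and in dec2P384R flies it was 3.53, 3.24 and 3.15 FPKM. Every control library lay above every library with a transgene by a wide margin, and the 3 libraries of each genotype lay close together. Means were 15.2 ± 0.726 FPKM (SD, n = 3) in the control, 3.84 ± 0.274 in dec2WT and 3.31 ± 0.2 in dec2P384R. On the log2(FPKM + 0.5) scale, which understates changes of low genes, CG17322 differed by -2.04 ± 0.10 (SE) between dec2P384R and control and by -1.86 ± 0.10 between dec2WT and control. The plain ratio of the mean levels was 4.6 and 3.96. RNA of the whole body was measured, so fewer cells that express a gene and less RNA per cell cannot be told apart, here or below.

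The counts behind these levels were not small. CG17322 had 588, 814 and 665 Illumina reads in the control libraries, 173, 141 and 167 in dec2WT, and 158, 114 and 112 in dec2P384R. In the fit over all 13418 genes tested, it was called lower in both comparisons with the control. It ranked 22 by size of the fold change among the 157 genes called lower in dec2P384R and 39 among the 186 called lower in dec2WT. The 2 comparisons use the same 3 control libraries. The calls and ranks of CG17322 rest on values that entered the choice and are given as a description.

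Nanopore sequencing gave CG17322 levels of 25.0, 24.3 and 19.6 CPM in control flies. Levels were 5.6, 7.16 and 5.29 CPM in dec2WT and 5.88, 4.57 and 4.7 CPM in dec2P384R. The control libraries again lay above all others, without overlap. CG17322 fell by 2.19 ± 0.22 (SE, log2 scale) in dec2P384R, which is 4.57-fold, with an adjusted p of 0.000396 by edgeR's quasi-likelihood test. It fell by 1.93 ± 0.20, or 3.81-fold, in dec2WT, with an adjusted p of 0.000504 by the same test. These Nanopore results were also known before the genes were chosen, so their adjusted p-values may not be independent of the choice. The libraries may also hold RNA of the same animals as the Illumina libraries.

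**Figure D2:**
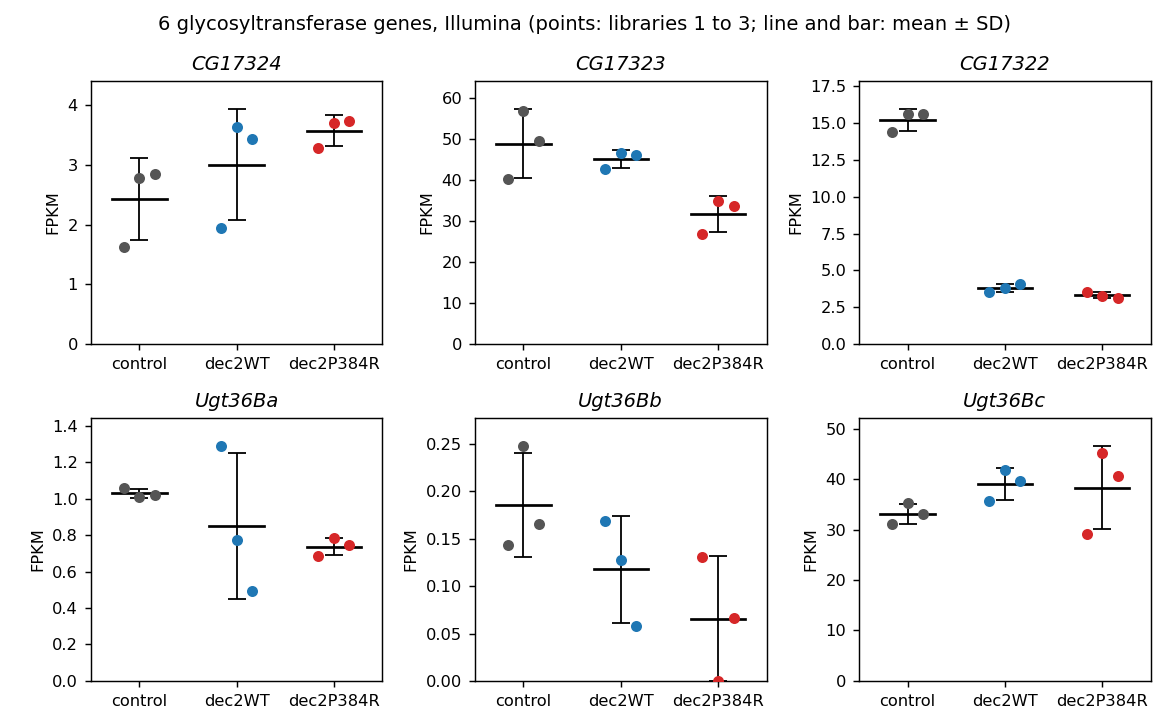
Illumina level in FPKM (vertical axis) of the 6 genes, 1 panel per gene with its own scale; each point is a library, and bars give the mean and SD of 3 libraries per genotype, cut at 0. CG17322 sits at 14.4 to 15.6 FPKM in control flies and at 3.15 to 4.11 FPKM in both transgenic genotypes, and no other gene shows a separation of that size.

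The dec2P384R and dec2WT flies differed little in CG17322. On Illumina the ranges of 3.15 to 3.53 FPKM and 3.56 to 4.11 FPKM did not overlap but nearly met. The log2 difference was -0.19 ± 0.10 and was not called. On Nanopore it was -0.26 ± 0.25 with an adjusted p of 0.895 by edgeR's quasi-likelihood test, and the ranges overlapped. A miss of the threshold does not show that the level was the same in both.

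CG17323, the gene just before CG17322 and the most abundant of the 6 by FPKM in control flies, showed a smaller difference. Its Illumina level was 40.1, 56.8 and 49.5 FPKM in control flies, 42.5, 46.5 and 46.0 in dec2WT and 26.7, 34.8 and 33.5 in dec2P384R. The dec2P384R libraries lay below all 6 others, while the dec2WT libraries lay within the range of the controls. Its log2 difference from the control was -0.61 ± 0.14 in dec2P384R, or 1.53-fold lower, and -0.10 ± 0.14 in dec2WT. The first of these was called with an adjusted p of 0.0498 by limma, at the threshold of 0.05. That call was lost when any 1 library other than control replicate 1 was left out, with an adjusted p of up to 0.185 without control replicate 2, and it was also lost when only the 6 libraries of the comparison were fitted, with an adjusted p of 0.115.

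Between the transgenic genotypes, CG17323 differed by -0.51 ± 0.14 on the log2 scale without overlap, and this was not called. Its Nanopore level was 60.0, 61.8 and 58.0 CPM in control flies, 47.0, 47.7 and 72.4 in dec2WT and 51.9, 47.0 and 38.4 in dec2P384R. The dec2P384R libraries again lay below the controls, but they overlapped with dec2WT. The Nanopore log2 differences were -0.38 ± 0.19 for dec2P384R against control, -0.10 ± 0.18 for dec2WT against control and -0.28 ± 0.19 between the transgenic genotypes. None passed edgeR's quasi-likelihood test, with adjusted p of 0.485, 0.915 and 0.824.

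CG17324, the gene at the head of the same group, was present at a low level. It measured 1.63, 2.78 and 2.85 FPKM in control flies, 1.94, 3.63 and 3.43 in dec2WT and 3.27, 3.7 and 3.73 in dec2P384R. The dec2P384R libraries lay above the controls, and dec2WT overlapped with both. Its log2 difference from the control was 0.50 ± 0.22 in dec2P384R and 0.25 ± 0.22 in dec2WT, and neither was called. On Nanopore it had 0.805 to 3.12 CPM in control flies, 1.49 to 4.46 in dec2WT and 2.13 to 6.99 in dec2P384R, so that all genotypes overlapped. The Nanopore log2 differences of 1.06 ± 0.56 and 0.66 ± 0.55 had adjusted p of 0.51 and 0.77 by edgeR's quasi-likelihood test. Leaving out single libraries moved the first of these to between 0.36 (without dec2P384R replicate 2) and 1.48 (without control replicate 1).

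The 3 neighbours therefore differed in how their levels stood to each other. CG17322 reached 35.8%, 27.5% and 31.6% of the FPKM of CG17323 in the control libraries. It reached 8.39%, 8.24% and 8.93% in dec2WT and 13.2%, 9.3% and 9.4% in dec2P384R. The transgenic libraries all lay far below the controls, and the dec2WT libraries lay slightly below those of dec2P384R. The same ratio in Nanopore counts, which are not divided by length, was 33.8% to 41.7% in the control, 7.37% to 15.1% in dec2WT and 9.85% to 12.3% in dec2P384R, where the transgenic genotypes overlapped. CG17322 made up 23.1% ± 2.45 (SD, n = 3) of the summed FPKM of the 3 genes in control flies, 7.4% ± 0.291 in dec2WT and 8.69% ± 1.57 in dec2P384R. The ratio uses the CG17322 values that the choice rested on and is given without a test.

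**Figure D3:**
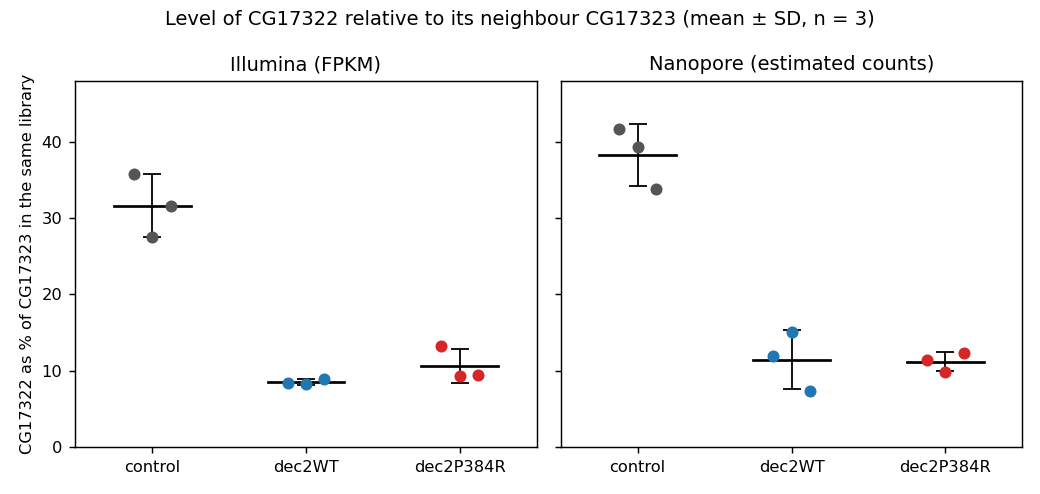
Level of CG17322 as a percentage of that of CG17323 (vertical axis) by genotype, for Illumina FPKM and for Nanopore counts; points are libraries and bars give the mean and SD of 3. Control libraries lie at 27.5% to 35.8% on Illumina and 33.8% to 41.7% on Nanopore, and all transgenic libraries lie at or below 15.1%.

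Ugt36Bc, the last gene of the other group, was nearly as abundant as CG17323. Its Illumina level was 31.1, 35.2 and 33.1 FPKM in control flies, 35.6, 41.8 and 39.6 in dec2WT and 29.1, 45.1 and 40.6 in dec2P384R. The dec2WT libraries lay just above the controls, and the dec2P384R libraries spanned both. Log2 differences were 0.18 ± 0.15 for dec2P384R against control, 0.23 ± 0.15 for dec2WT against control and -0.05 ± 0.15 between the transgenic genotypes, and none was called. Nanopore levels were 45.8 to 68.7 CPM in control flies, 42.4 to 80.8 in dec2WT and 48.2 to 74.0 in dec2P384R, and all genotypes overlapped. The Nanopore log2 differences were 0.20 ± 0.25, 0.25 ± 0.24 and -0.04 ± 0.24, with adjusted p of 0.805, 0.819 and 0.988 by edgeR's quasi-likelihood test.

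Ugt36Ba and Ugt36Bb were close to the lower limit of detection. Ugt36Ba measured 1.06, 1.01 and 1.02 FPKM in control flies, 1.29, 0.776 and 0.495 in dec2WT and 0.686, 0.782 and 0.744 in dec2P384R. The dec2P384R libraries lay below the controls, while dec2WT ranged from the lowest to the highest value of all. Its log2 differences were -0.31 ± 0.21 in dec2P384R and -0.22 ± 0.21 in dec2WT, and neither was called. On Nanopore it had 2 to 9 estimated counts per library and did not pass the filter on low counts. Its Nanopore levels were 1.07 to 2.77 CPM in control flies, 0.557 to 1.19 in dec2WT and 1.28 to 2.42 in dec2P384R, so that here dec2P384R lay within the controls.

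Ugt36Bb passed the filter on neither platform and has no fold change. It had 5, 11 and 6 Illumina reads in control flies, 7, 4 and 2 in dec2WT and 5, 0 and 2 in dec2P384R. The library without a read, dec2P384R replicate 2, allows a level of up to 0.1 FPKM, which is 3 reads and covers counting error only. On Illumina the dec2P384R libraries, at 0 to 0.131 FPKM, lay below the controls at 0.143 to 0.248 FPKM. The values that nearly met, 0.131 and 0.143 FPKM, both rest on 5 reads and differ only by library scaling. The dec2WT libraries overlapped with both genotypes. Nanopore gave 0 to 2 estimated counts per library. At so few reads the levels are given without a fold change or test.

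**Figure D4:**
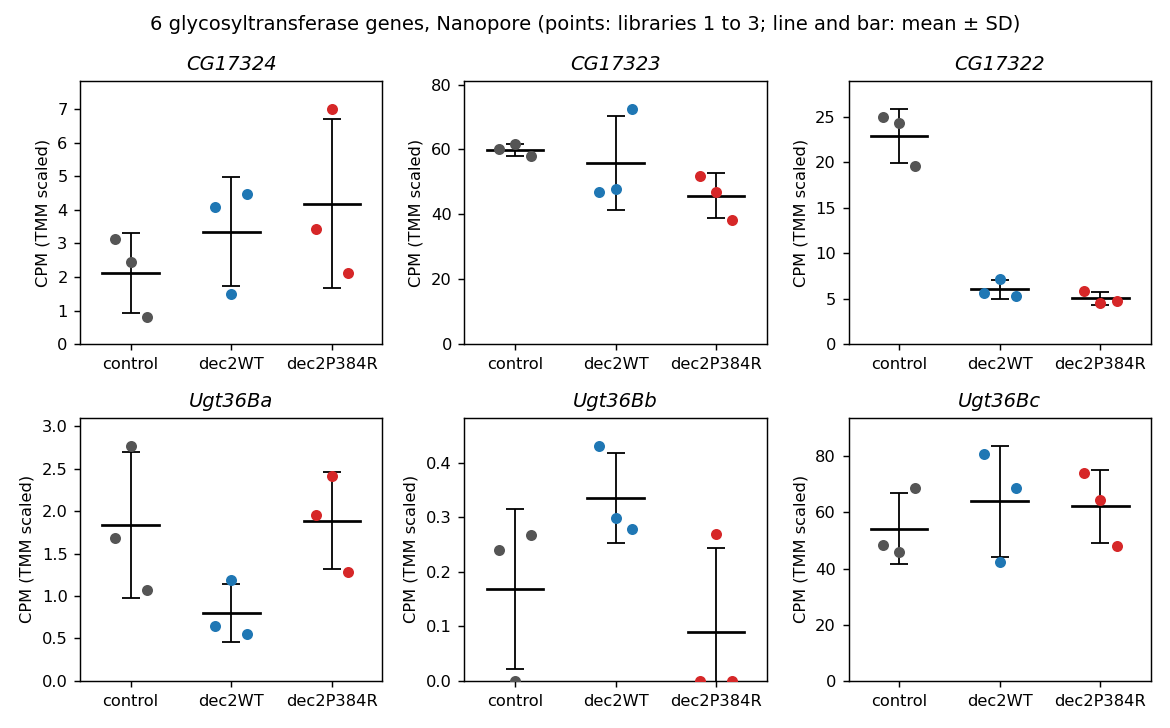
Nanopore level in CPM (vertical axis) of the 6 genes, laid out as in the Illumina plot, with points for libraries and bars for the mean and SD of 3, cut at 0. CG17322 lies at 19.6 to 25.0 CPM in control flies and 4.57 to 7.16 CPM in the transgenic genotypes, while CG17324 and Ugt36Bc overlap between all genotypes.

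Across the 6 genes, 5 could be tested on Illumina and 4 on Nanopore. In dec2P384R against control on Illumina, 2 of the 5 were called, both lower (CG17322 and CG17323), where 2.8% of all genes were called. In dec2WT against control 1 was called, CG17322, lower, where 2.61% of all genes were called. Between dec2P384R and dec2WT none was called by limma, where 0.783% of all genes were, and 1083 genes had an unadjusted p under 0.05. Since the Illumina values entered the choice, nothing is read from these shares. The median log2 difference of the tested members was -0.31, -0.10 and -0.09 in the 3 comparisons, beside 0 for all genes.

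On Nanopore 1 of 4 tested members, CG17322, was called in dec2P384R against control, where 0.474% of all genes were called. The same gene alone was called in dec2WT against control, where the share of all genes was 0.799%. Between the transgenic genotypes edgeR called none, with 0.132% of all genes called and 819 at an unadjusted p under 0.05. The median log2 difference of the tested members was -0.09, 0.07 and -0.15.

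In the authors' deposited table for dec2P384R against control on Illumina, CG17322 was the one member among 244 genes listed, with a log2 fold change of -2.2. In the authors' deposited table for dec2WT against control it was again the one member, among 286 genes, with -1.99. In the authors' deposited table for dec2P384R against dec2WT, with 93 genes, no member was listed. A member that is not listed has no deposited Illumina fold change, and the authors' rule for listing a gene may differ from the threshold used here. The authors' deposited table for Nanopore gives CG17322 -2.19, -1.93 and -0.26 for the 3 comparisons.

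By level per length, the order in control flies was CG17323, Ugt36Bc, CG17322, CG17324, Ugt36Ba and Ugt36Bb, from high to low. The ranges of neighbours in this order did not overlap in the control libraries. In dec2WT the ranges of CG17322 (3.56 to 4.11 FPKM) and CG17324 (1.94 to 3.63 FPKM) met, and in dec2P384R these genes overlapped too, with means of 3.31 and 3.57 FPKM. At the top of the order, Ugt36Bc and CG17323 overlapped in dec2P384R, with means of 38.3 and 31.7 FPKM. Over all 9 Illumina libraries the 6 genes ranged from the abundant to the barely detected, from rank 5 (CG17323) to rank 34 (Ugt36Bb) among the 35 genes that the deposited annotation places in the UDP-glycosyltransferase family. CG17322 ranked 17 and Ugt36Bc ranked 7. The 6 genes made up 14.2% ± 1.31 (SD, n = 3) of the summed FPKM of the family in control flies, 11.6% ± 0.4 in dec2WT and 11.5% ± 0.351 in dec2P384R.

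Of the other 29 genes of the family, 22 were tested on Illumina. In dec2P384R against control 1 was called higher and 1 lower, where 2.8% of all genes were called, and in dec2WT against control 1 was called higher, where 2.61% were. The one called higher in both was CG15661, which rose from 20.0 ± 2.11 FPKM (SD, n = 3) to 29.8 ± 3.81 in dec2P384R and 35.5 ± 3.61 in dec2WT. The adjusted p of CG15661 by limma was 0.0453 and 0.00648. The one called lower was Ugt86Dd, a gene known for its part in nicotine resistance, which fell by 1.68 ± 0.22 on the log2 scale in dec2P384R and differed by -1.56 ± 0.22 between dec2P384R and dec2WT (adjusted p by limma 0.00215 and 0.00686). On Nanopore, Ugt86Dd was the one gene of 19 tested that was called, lower in dec2P384R against control with an adjusted p of 0.031 by edgeR. In dec2P384R against control, leaving out any 1 library other than dec2P384R replicate 1 left 1 of these family genes called on Illumina, and leaving out any 1 of the 6 compared libraries left 0 called on Nanopore. The median log2 difference of the other family genes on Illumina was 0.02 in dec2P384R and 0.16 in dec2WT, and in dec2WT against control their values ran from -0.33 (Ugt86Dj) to 0.95 (CG5999, not called). The lowest of the 19 tested on Nanopore in dec2WT against control was CG16732, at -1.31 ± 0.37 and not called, beside -1.93 for CG17322.

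**Figure D5:**
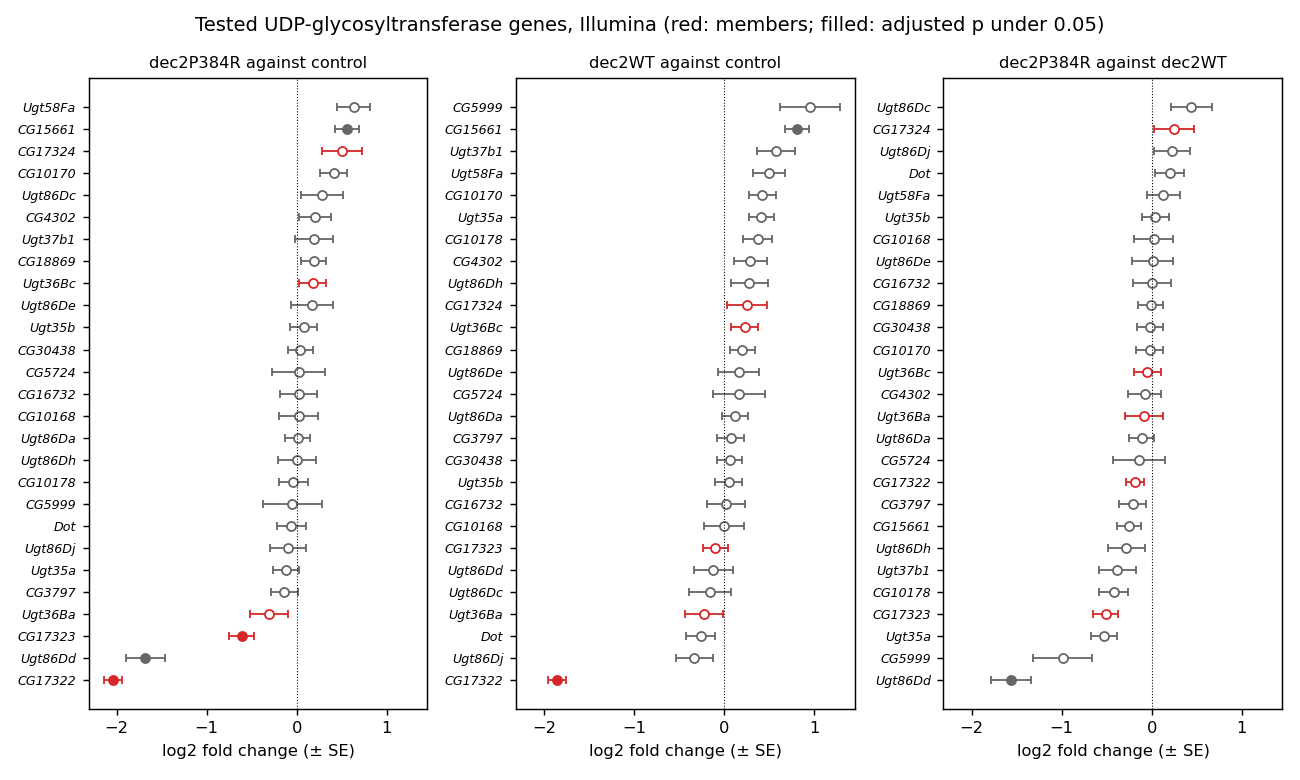
Log2 difference on the log2(FPKM + 0.5) scale (horizontal axis, with SE) for the tested genes of the family, 1 panel per comparison, with the last panel setting dec2P384R against dec2WT; red marks members, grey the other 22 genes tested, and filled points those called. CG17322 stands at about the same low value in both transgenic genotypes (-2.04 and -1.86), whereas Ugt86Dd is low in dec2P384R (-1.68) and was not called in dec2WT.

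Genes that make the UDP-sugars which these enzymes consume were also looked at. Of 10 such genes, 9 were tested, and limma on Illumina and edgeR on Nanopore called none of them in any comparison. Of all genes, 0.132% to 2.8% were called, so no call among 9 genes is not a result about them. Their median log2 difference from the control on Illumina was -0.13 in dec2P384R and -0.09 in dec2WT.

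Markers of the organs in which the family is known were set beside the fall of CG17322. The 8 tubule markers summed to 169 to 195 FPKM in control flies, 167 to 190 in dec2WT and 159 to 197 in dec2P384R, and none was called. The 6 olfactory organ markers summed to 95.4 to 166, 117 to 126 and 75.7 to 113 FPKM, with 5 tested and none called. The 10 midgut markers summed to 11700 to 13400, 10000 to 10100 and 8960 to 12500 FPKM, and 1 was called lower in each comparison with the control (Jon99Cii in dec2P384R, alphaTry in dec2WT). The dec2WT libraries thus had lower midgut sums than the controls, without overlap. The mean of alphaTry alone was 5590 FPKM in control flies, 2790 in dec2WT and 3720 in dec2P384R, where it was not called. That of Jon99Cii was 1940 FPKM in control flies, 983 in dec2P384R and 1130 in dec2WT, where it was not called. In contrast, the median log2 difference of the 10 markers in dec2WT against control was 0.11 on Illumina and 0.25 on Nanopore. The Nanopore sums of 9510 to 12700 CPM in control flies and 7950 to 9770 in dec2WT overlapped. On Nanopore alphaTry was again called lower in dec2WT, with a log2 difference of -1.05 ± 0.19 and an adjusted p of 0.0183 by edgeR. The 7 fat body markers summed to 631 to 772, 694 to 867 and 617 to 930 FPKM, with Lsd-1 and Lsp2 called higher in dec2P384R and Lsp2 in dec2WT. The log2 difference of Lsp2 on Illumina was 2.61 ± 0.55 in dec2P384R and 2.75 ± 0.55 in dec2WT, and it was not called on Nanopore. Of all genes tested on Illumina, 2.8% were called in dec2P384R and 2.61% in dec2WT against the control. The part of any organ in the fall of CG17322 was not tested.

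Chromosomal neighbours of the 6 genes were listed for context. Of 12 other genes within 10 kb of a member, 7 were tested on Illumina and 11 on Nanopore. None was called in any comparison by limma or edgeR, where 0.132% to 2.8% of all genes were called. At such shares, no call among so few genes is not a result about the neighbourhood. Their Illumina log2 differences ran from -0.27 to 0.21 in dec2P384R against control and from -0.05 to 0.43 in dec2WT against control. One of them, CG17597, lies on the minus strand and overlaps the 3′ end of CG17322 by 48 bases. Its mean level was 61.5 FPKM in control flies, 66.6 in dec2WT and 56.0 in dec2P384R, which is above that of CG17322 throughout. Reads in the overlap cannot be assigned if strand was not used in counting, and the strand setting is not given in the sources used here.

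Genes with a profile like that of a member were named by Pearson's r of log2 levels over the 9 Illumina libraries, among 10747 genes with a mean of at least 2 FPKM. All points come from 3 genotypes, so that r mixes differences between genotypes with the spread between libraries of 1 genotype. It is given as a description. For CG17322 the closest was CG2772 (r = 0.9899), which had mean levels of 10.1 FPKM in control flies, 1.21 in dec2WT and 0.996 in dec2P384R. Next came CG3907 (r = 0.9887) with 52.9, 37.5 and 37.7 FPKM, and lncRNA:CR45408 (r = 0.9857) with 6.27, 0.0381 and 0.0692 FPKM. All 3 share the step between control flies and both transgenic genotypes, and the cause of this step was not tested. Over the 9 Nanopore libraries r was 0.85 for CG2772 and 0.56 for CG3907.

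CG17323 was most like Adgf-A, an adenosine deaminase (r = 0.9639), foxo, a transcription factor of insulin signalling (r = 0.9637), and Cyp6a20, a cytochrome P450 (r = 0.9541). The Nanopore r of these was 0.079, 0.45 and 0.4. Ugt36Bc was most like rdhB, a retinoid dehydrogenase (r = 0.982, Nanopore 0.78). Next to it came CG4302, itself a UDP-glycosyltransferase (r = 0.9596, Nanopore 0.15), and CG17928, one of the chromosomal neighbours (r = 0.957, Nanopore 0.38). CG17324 was most like crq, which encodes a scavenger receptor of haemocytes (r = 0.9611, Nanopore 0.26), CG12594 (r = 0.9389, Nanopore -0.094) and Cpr100A, a cuticle protein gene (r = 0.9288, Nanopore 0.89). The likeness of the remaining members rests on few reads. For Ugt36Ba the closest were CG10565 (r = 0.9244), Ir76a (r = 0.9229) and CG8560 (r = 0.8884), with a Nanopore r of 0.12, -0.32 and 0.46. For Ugt36Bb they were Rm62 (r = 0.9624), crn (r = 0.9601) and Rbpn-5 (r = 0.9576), with a Nanopore r of 0.14, -0.12 and 0.28.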

How the data were processed

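Per the labels, polyA-enriched RNA was read on Illumina in pairs of 150 nt, and direct cDNA was read on Nanopore. Tools named in the submitters' processing notes, with no role given, are DESeq2, Salmon, minimap2, featureCounts 1.5.0-p3 and HISAT2. The genome build and strand setting are not given in the sources used here. The Illumina table deposited by the authors holds FPKM values. Multiplied by gene length and a constant per library, found from counts in the authors' comparison tables, 100% of these values came out as whole reads (relative tolerance 1e-06). The Nanopore table deposited by the authors holds estimated counts, of which 55.1% are not whole. The authors also deposited log2 fold changes and adjusted p-values of their own comparisons. A further 36 columns of values per library were not used. One Illumina column whose name has digits exchanged was used as dec2P384R replicate 2.

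For Illumina, limma 3.58.1 in R 4.3.3, with a trended empirical Bayes step, was run on log2(FPKM + 0.5) for the 13418 genes that reached 0.5 FPKM in 3 or more of 9 libraries. Rounded Nanopore counts were tested with edgeR 4.0.16 (TMM, filterByExpr, quasi-likelihood) over 11393 genes, and standard errors were derived from the F statistic. A count test had been planned for both tables and was run on the recovered Illumina reads as an alternative. All 9 libraries of a platform entered 1 fit. P-values are two-sided and were adjusted over all genes tested (Benjamini-Hochberg), and "called" means an adjusted p under 0.05. Where nothing is said of separate cultures, p-values measure the spread between these samples. Scripts were tested on simulated data.

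The members and all gene lists were chosen with earlier results of these data known. The rule for named genes took all members, the 3 genes most like each, genes within 10 kb and list genes that were called. CG5999, Ugt86Dj and CG16732, as ends of a range, and the markers at 0 were named after their values were seen. Same-numbered Illumina libraries of dec2P384R and control deviated together from their group means (r = 0.256, 0.116 and 0.251 across genes). The main fits took no account of these numbers, and only the replicate block among the alternatives did. Alternatives were other pseudocounts, no filter, DESeq2 1.42.0, edgeR on reads, the 6 libraries of a comparison alone, a replicate block, and leaving out each library. No sequence is shown.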

Additional observations from a re-analysis of the deposited data

How the results depend on the processing

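Of 408 alternative values for 27 fold changes of the members, 400 moved by less than 1 SD and no called value changed sign. On Nanopore, CG17322 was called against the control under every alternative, with an adjusted p of 2.57e-07 to 0.00612 in dec2P384R and 5.45e-07 to 0.00438 in dec2WT. Its Illumina values entered the choice of genes and are given as values alone. The 8 values that moved more were Illumina folds of CG17322. In dec2P384R they were -2.17 and -1.91 with pseudocounts of 0.1 and 1, -2.19 with edgeR and -2.20 with DESeq2 on reads. In dec2WT they were -1.96, -1.75, -1.98 and -1.99. The moves with the pseudocount follow from the pseudocount itself.

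The call of CG17323 in dec2P384R against control was the one member call that was lost. Members called went from 2 to 1 with a pseudocount of 0.1 (its adjusted p 0.0518), with no filter (0.141) and with 6 libraries alone (0.115), and were 1 to 2 when each library was left out. It was kept with edgeR on reads (0.033), with DESeq2 (0.00223), with a pseudocount of 1 and without control replicate 1 (0.0262). Pairing the libraries, the replicate block kept it too (0.00852). The Illumina values of CG17323 entered the choice, so these p-values only describe how the call depends on the processing. Between the transgenic genotypes members called went from 0 to 1 under the replicate block, where CG17323 just passed the threshold. Same-numbered libraries there correlated at 0.236, 0.04 and 0.209 across genes, and the labels give only their numbers. The block changed no other member call. The cause of these changes was not tested.

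Other family genes called on Illumina in dec2P384R against control went from 2 to 1 (no filter, 6 libraries alone) or 4 (DESeq2), and were 1 to 2 with a library left out. In dec2WT they went from 1 to 3 under the replicate block, and were 1 to 2 with a library left out. Between the transgenic genotypes they went from 1 to 0 (no filter) or 2 (replicate block), and were 1 to 2 with a library left out. On Nanopore they were 0 to 1 with a library left out in both comparisons with the control, went from 0 to 1 in dec2WT with DESeq2 or 6 libraries alone, and from 0 to 1 between the transgenic genotypes with DESeq2.

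All genes called on Illumina went from 376 to 238, from 350 to 209 and from 105 to 46 without a filter in the 3 comparisons, and to 179 with DESeq2 in the last. With a library left out they were 179 to 354, 182 to 387 and 56 to 103. On Nanopore, DESeq2 called 103 in place of 54 and 39 in place of 15, and with a library left out 27 to 70, 49 to 96 and 10 to 17 were called. Depth limits what can be said of Ugt36Ba on Nanopore and of Ugt36Bb on both platforms.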

Other observations

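Near the 6 genes, 2 pairs of gene models with identical coordinates, CG10570 with CG42502 and CG17325 with CG42305, were listed at 0 FPKM in all 9 Illumina libraries. On Nanopore the same models had 194 to 673 CPM (CG10570), 296 to 708 (CG42502), 17.2 to 217 (CG17325) and 113 to 291 (CG42305). Only Nanopore thus gave values above 0 for these models. How its estimated counts were divided between 2 models with the same coordinates was not checked. The cause of the difference between platforms was not tested.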
